A study of Mus musculus with 6 samples.

Results

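The caspases are cysteine proteases that cut their targets after aspartate, and 7 of their genes are described here in LSECs, the fenestrated liver sinusoidal endothelial cells, in primary culture from mouse. They were chosen by symbol, not by how they changed: the initiators Casp2, Casp8 and Casp9, the executioner Casp6, and the inflammatory Casp1, Casp4 and Casp12. All 7 were among the 24421 gene symbols in the files, and all 7 had enough counts to be tested, as did 12892 symbols in all. Other caspase genes are not reported here, so Casp6 alone stands for the executioners.

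The cells came from the livers of mice of genotype "wild" and were picked from a cell suspension by their CD146, a protein on the surface of endothelium, with magnetic beads. They spent a night on collagen I and 6 h without serum. In the pressure group (3 samples) hydrostatic pressure then swung between 101 and 135 kPa (absolute) with a frequency of 0.01 Hz over 8 h, and 3 samples were controls, whose handling during those hours is not labelled. Pressure and any difference in handling or culture time cannot be told apart. The labels do not say whether samples of a group are separate cultures or animals, and the spread that the p-values rest on may therefore be only technical.

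Initiator caspases are activated on large assemblies: caspase-8 on the adaptor FADD below death receptors, caspase-9 on the apoptosome that cytochrome c and APAF1 build, and caspase-2 on the PIDDosome. Executioners such as caspase-6 act downstream of initiators and dismantle the cell, with nuclear lamins among their targets. Inflammatory caspases act elsewhere. Caspase-1 is recruited to inflammasomes, where it matures interleukin-1β and interleukin-18 and opens gasdermin D pores, and mouse Casp4, also known as Casp11, is activated directly by bacterial lipopolysaccharide in the cytosol. Casp12 belongs to the inflammatory branch by sequence and has been tied to the endoplasmic reticulum. Transcript levels, which are what was measured, do not show whether any of these proteases was active.

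Library totals ran from 12922959 to 18655749 deposited counts. A level below is CPM, the deposited counts relative to library size after scaling of each library by a TMM factor, and a change is a log2 fold change of pressure over control ± its standard error from edgeR's quasi-likelihood test, called at an adjusted p of 0.05. Pressure sample 3 was the least like the rest of its group: its log CPM correlated with those of samples 1 and 2 at 0.985 and 0.988, and theirs with each other at 0.993. Changes without it are therefore given too. LSEC markers were present in all libraries, with a summed level of 4632 to 4771 CPM in controls and 2702 to 3029 CPM under pressure. Of 9 tested, 7 fell and 0 rose. Pan-endothelial markers summed to 4670 to 4959 CPM in controls and 4503 to 5032 CPM under pressure, and the groups overlapped. Of 8 tested, 3 fell and 1 rose. Markers of macrophages, cells in which inflammatory caspases are well known, were also abundant (13 of 13 tested; summed level 7133 to 7716 CPM in controls and 6703 to 7229 CPM under pressure). Stellate and mural cell markers summed to 144 to 155 CPM in controls and 160 to 179 CPM under pressure. Of 7 tested, 1 rose (Dcn, most of the sum, from 104 ± 3.85 to 132 ± 4.76 CPM) and 2 fell (Acta2 and Des). Dendritic cell markers summed to 22.7 to 26.8 CPM and 6.73 to 9.09 CPM. Of 3 tested, 1 fell (Clec9a, from 19.5 ± 1.33 to 1.43 ± 0.236 CPM) and 1 rose (Xcr1). Hepatocyte markers summed to 7.47 to 10.5 CPM and 14.6 to 18.01 CPM (2 of 3 tested rose), cholangiocyte markers to 5.22 to 5.28 CPM and 9.22 to 12.1 CPM (3 of 3 rose), and T and NK cell markers to 5.42 to 7.14 CPM and 2.68 to 4.01 CPM. Neutrophil and B cell markers summed to at most 0.409 and 4.11 CPM in any library. The part of these cell types in the caspase changes was not tested.

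Under pressure 6 of the 7 caspase transcripts fell and Casp4 rose. Falls spanned all classes: 3 of 3 initiators, the executioner Casp6, and 2 of 3 inflammatory members. Of all tested genes, 68.8% were called, 35.1% as lower and 33.7% as higher, so that a call by itself does not set a caspase apart from other genes. The 3 pressure values lay wholly outside the 3 control values for all 7 members, which was also the case for 71.9% of all genes. The median change was -0.88 for the initiators, -0.54 for Casp6 and -0.51 for the inflammatory members, against -0.015 for all tested genes. The inflammatory median is the value of Casp12, and the class ran in both directions, from -0.54 to 0.85. Directions were the same with each of 4 scalings of the libraries. Scaling by library totals alone lowered the median of all genes by 0.213, and with it 3129 genes were called higher and 5887 lower, against 4347 and 4524.

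**Figure D1:**
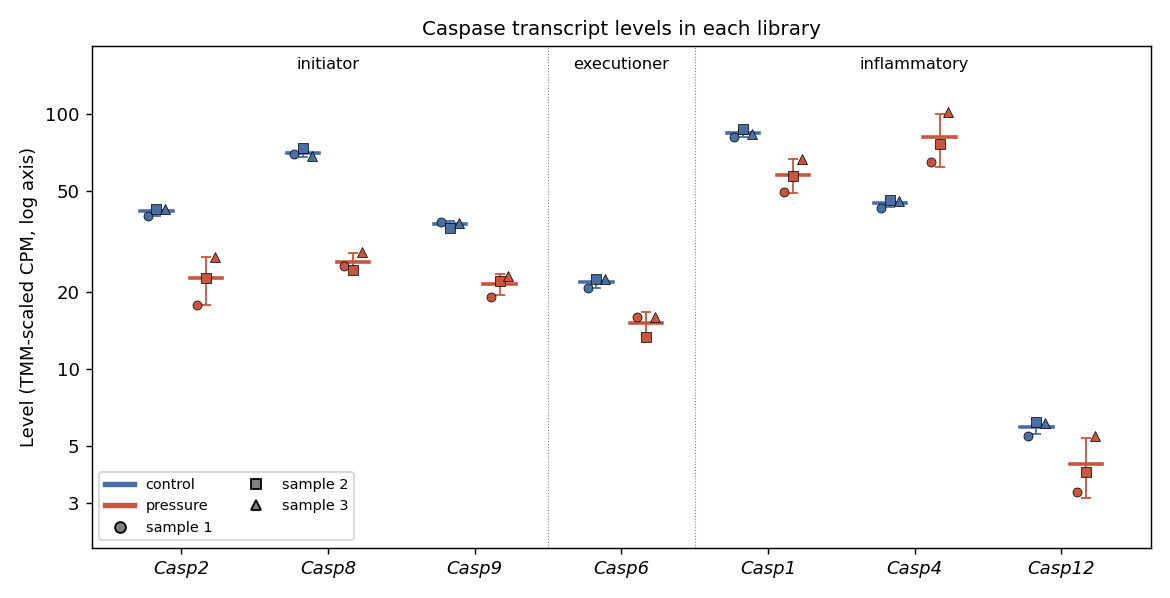
Level of each caspase transcript (TMM-scaled CPM, log axis) in the 3 control libraries (blue) and the 3 pressure libraries (red); marker shapes give the sample number, horizontal lines the group mean and error bars the SD. The groups do not overlap for any of the 7 genes, and Casp4 is the one whose pressure values, 65.0 to 102 CPM, lie above its controls.

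The inflammatory members are neighbours. In GRCm38, with the GENCODE M21 annotation, Casp1 (chr9:5298517-5307265), Casp4 (chr9:5308828-5336783) and Casp12 (chr9:5345430-5373032) lie in this order on the plus strand of chromosome 9, within 74.5 kb that hold no other annotated gene. Casp1 ends 1562 bases before Casp4 begins, and 8646 bases separate Casp4 from Casp12. Because the middle gene went one way and both of its neighbours the other, the stretches in front of their starts are shown. Each runs from 250 to 51 bases before the start of a RefSeq transcript (RefSeq, GRCm38.p6, plus strand), contains no annotated exon base, and has matches to any of 6 searched motifs in capitals. The positions are chr9:5298267-5298466 for Casp1, chr9:5308599-5308798 for Casp4 and chr9:5345226-5345425 for Casp12.
Casp1: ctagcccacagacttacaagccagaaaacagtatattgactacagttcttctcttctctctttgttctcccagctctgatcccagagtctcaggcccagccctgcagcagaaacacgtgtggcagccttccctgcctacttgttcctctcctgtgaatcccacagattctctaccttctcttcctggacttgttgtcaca
Casp4: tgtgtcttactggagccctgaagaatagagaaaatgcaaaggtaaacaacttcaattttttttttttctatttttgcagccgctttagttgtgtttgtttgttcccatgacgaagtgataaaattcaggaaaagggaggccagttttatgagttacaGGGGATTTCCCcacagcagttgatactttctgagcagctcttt
Casp12: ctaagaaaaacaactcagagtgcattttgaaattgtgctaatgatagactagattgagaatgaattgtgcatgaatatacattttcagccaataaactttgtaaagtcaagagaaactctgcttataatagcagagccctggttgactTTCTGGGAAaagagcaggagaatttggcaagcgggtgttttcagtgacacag

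The capitals in Casp4 are a pair of overlapping κB matches, the site type bound by NF-κB, which start 93 and 92 bases before the transcript's start. Those in Casp12 are a GAS match, the site type bound by STAT factors. A further GAS match (chr9:5345440-5345448) starts 36 bases before the start of the RefSeq transcript, outside the printed stretch. It lies inside Casp12 as annotated by GENCODE, where the gene begins at chr9:5345430. The Casp1 window held none of the 6 motifs. The motifs were searched on both strands of the whole 300-base windows (250 before and 50 after a start) and were chosen after these windows had been seen: κB, the interferon-stimulated response element (GAAA, then NN, then GAAA), GAS (TTCNNNGAA), AP-1 (TGANTCA), CRE (TGACGTCA) and the ATF4 element TGATGCAA. Of 32851 such windows of mouse genes, 4.51% held a κB match and 8.3% a GAS match. The rates of the other motifs were 3.44% for the interferon-stimulated response element, 7.81% for AP-1, 1.79% for CRE and 0.895% for the ATF4 element. A match to any of the 6 is thus more common than a match to a single one. Windows of Casp2, Casp6, Casp8 and Casp9 held none of the 6. The Casp8 window (chr1:58802252-58802551) lies inside the gene as annotated by GENCODE (chr1:58795374-58847503). The stretch before that annotated gene start was not searched. A match is a string of letters, and whether any factor bound there was not measured.

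Casp4 was the member that rose. Its levels were 42.9, 45.9 and 45.8 CPM in controls and 65.0, 76.4 and 102 CPM under pressure. The lowest pressure library was above the highest control, and the pressure libraries were spread far more widely than the controls (44.8 ± 1.71 against 81.1 ± 18.9 CPM, SD, n = 3 each). The change was 0.85 ± 0.14 (adjusted p = 0.000326, 1.81-fold higher). Sample 3 held the highest value; without it the change was 0.66 ± 0.083 (adjusted p = 3.67e-08). Of all tested genes, 87.1% had a lower log2 fold change.

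Casp1, the protease of the inflammasome, had the highest level per kilobase of exon of the 7 genes in controls and fell. Levels were 81.7, 87.0 and 83.4 CPM in controls and 49.4, 57.4 and 66.9 CPM under pressure, and again pressure sample 3 was the highest of its group. The change was -0.54 ± 0.11 (adjusted p = 0.000985, 1.45-fold lower), and -0.65 ± 0.081 without that sample. Within a library the ratio of Casp4 to Casp1, each per kilobase of exon, stood at 0.212, 0.213 and 0.221 in controls and at 0.531, 0.537 and 0.615 under pressure. This ratio does not depend on library scaling, and it was on average 2.61 times as high under pressure.

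Casp12 had the lowest level per kilobase of exon, with 93 to 117 counts in control libraries and 53 to 67 under pressure. Its levels were 5.50, 6.24 and 6.14 CPM in controls and 3.30, 3.95 and 5.49 CPM under pressure. The highest pressure value reached almost to the lowest control value. The change was -0.51 ± 0.19 (adjusted p = 0.0317), the weakest call of the 7, and it missed the threshold with DESeq2 (adjusted p = 0.0529) and without any 1 of the libraries except pressure sample 3 (adjusted p from 0.0503 to 0.114). Without pressure sample 3 it was -0.71 ± 0.18 (adjusted p = 0.000873). The ratio of Casp12 to Casp1 per kilobase was 0.0276 ± 0.00127 in controls and 0.0283 ± 0.00321 under pressure (SD, n = 3 each), with overlapping groups; the difference was not tested.

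Macrophage markers moved both ways beside these changes. Of 13 tested, 3 rose (Marco, Csf1r and Ptprc) and 2 fell (Cd5l and Vsig4), and Clec4f, restricted to Kupffer cells in the liver, was measured at 76.05 ± 6.26 CPM without pressure and 80.3 ± 8.02 CPM with it (log2 fold change 0.076, adjusted p = 0.495). Their part in the changes of Casp1, Casp4 and Casp12 was not tested, and in these bulk samples fewer cells of a type and less RNA per cell cannot be told apart.

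Among the initiators Casp8 had the largest fall of all 7 members. Casp8 encodes the protease that starts death-receptor apoptosis and also holds necroptosis in check. It lies on chromosome 1 (chr1:58795374-58847503) and stood at 69.5, 73.55 and 68.6 CPM in controls and at 25.4, 24.4 and 28.8 CPM under pressure. Each group was tight and the gap between them wide. The change was -1.43 ± 0.090 (adjusted p = 4.80e-07, 2.7-fold lower), and 6.68% of all tested genes had a lower log2 fold change. Leaving out any 1 library gave values between -1.50 and -1.38.

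Casp9, the apoptosome protease (chr4:141793612-141815976), stood at 37.9, 35.7 and 37.5 CPM in controls and at 19.3, 22.1 and 23.2 CPM under pressure, a change of -0.79 ± 0.098 (adjusted p = 4.21e-05; -0.84 without pressure sample 3). Its exons share 94 bases, 1.81% of their length, with Cela2a and Ctrc on the opposite strand, and reads there cannot be told apart without a stated strand setting. Casp2, the PIDDosome protease (chr6:42264985-42282508), stood at 39.8, 42.5 and 42.55 CPM in controls and at 17.9, 22.8 and 27.5 CPM under pressure, a change of -0.88 ± 0.14 (adjusted p = 0.000201). Its pressure libraries were more spread out than those of Casp8 or Casp9, and without pressure sample 3 the change was -1.03 ± 0.10. The fall was not even across initiators: per kilobase of exon, the ratio of Casp8 to Casp9 was 3.43 ± 0.235 in controls and 2.2 ± 0.197 under pressure (SD, n = 3 each), with no overlap between the groups.

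Casp6, the executioner, which cuts lamin A, had a small fall. It lies on chromosome 3 (chr3:129901425-129914103), and its levels were 20.7, 22.7 and 22.7 CPM in controls and 16.1, 13.4 and 16.0 CPM under pressure. The groups did not overlap. The change was -0.54 ± 0.11 (adjusted p = 0.00116, 1.45-fold lower) and lay between -0.58 and -0.45 when 1 library was left out.

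**Figure D2:**
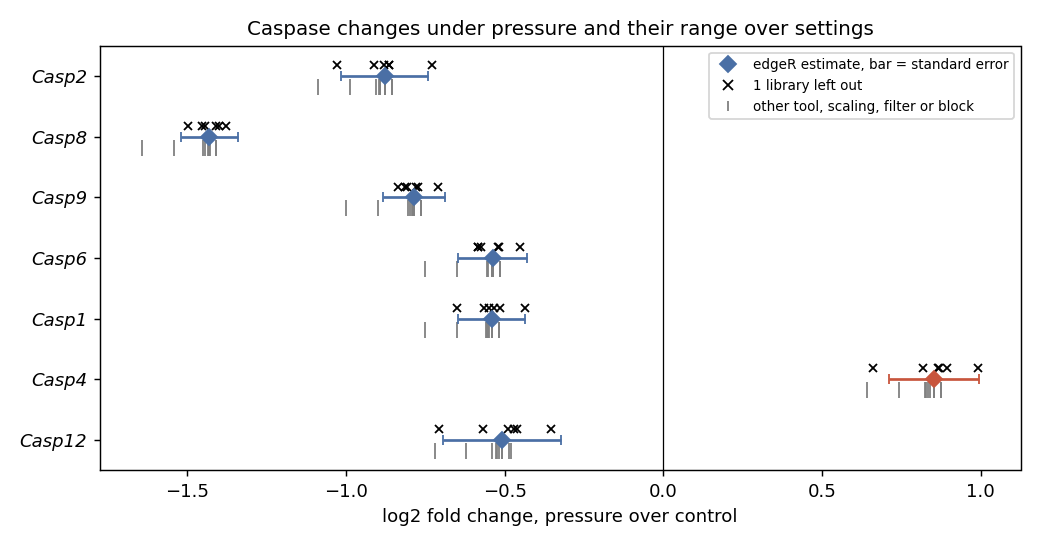
Log2 fold change of each caspase transcript, pressure over control: diamonds are the edgeR estimates with their standard errors (red above 0, blue below), crosses the values with 1 library left out, grey ticks those with another tool, scaling, filter, rounding or a replicate block. No value crosses 0; Casp8 lies lowest at -1.43 and Casp4 is the one member above 0, at 0.85.

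The makeup of the caspase pool shifted with these changes. Levels of different genes can be compared only per length, and per kilobase of exon the order in controls was Casp1 (56.15 ± 1.83 CPM per kb), Casp8 (24.4 ± 0.914), Casp4 (12.1 ± 0.461), Casp9 (7.13 ± 0.221), Casp2 (5.89 ± 0.224), Casp6 (3.94 ± 0.200) and Casp12 (1.55 ± 0.106; SD, n = 3 each). No neighbours in that order overlapped. Under pressure Casp4 (21.9 ± 5.10 CPM per kb) stood above Casp8 (9.07 ± 0.795) and below Casp1 (38.7 ± 5.85), while Casp9 and Casp2, and Casp2 and Casp6, overlapped.

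The inflammatory members made up 62.4%, 63.0% and 62.9% of the summed level per kilobase in controls and 74.2%, 76.6% and 77.6% under pressure. Their own summed level was 67.5, 72.1 and 69.7 CPM per kb in controls and 51.4, 60.0 and 73.6 under pressure. These groups overlapped, so the larger share was not a higher level. The share of the initiators went the other way, from 33.7% ± 0.417 to 20.5% ± 1.18. Their summed level was 36.9, 38.3 and 37.0 CPM per kb in controls and 15.0, 15.9 and 18.3 under pressure. Casp6 held 3.55% ± 0.117 and 3.42% ± 0.637 (SD, n = 3 each). Within the inflammatory members the gain in share was in Casp4, with 10.9% ± 0.245 in controls and 26.9% ± 1.91 under pressure. The share of Casp1 was 50.5% ± 0.226 and 47.9% ± 0.937. The order and the shares depend on the length used. Per kilobase of coding sequence, Casp4 (72.5 ± 16.9) ranked above Casp1 (48.0 ± 7.26) under pressure, and the inflammatory share was 46.8% in controls and 64.4% under pressure. No test was made of these shares, since they sum chosen genes.

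**Figure D3:**
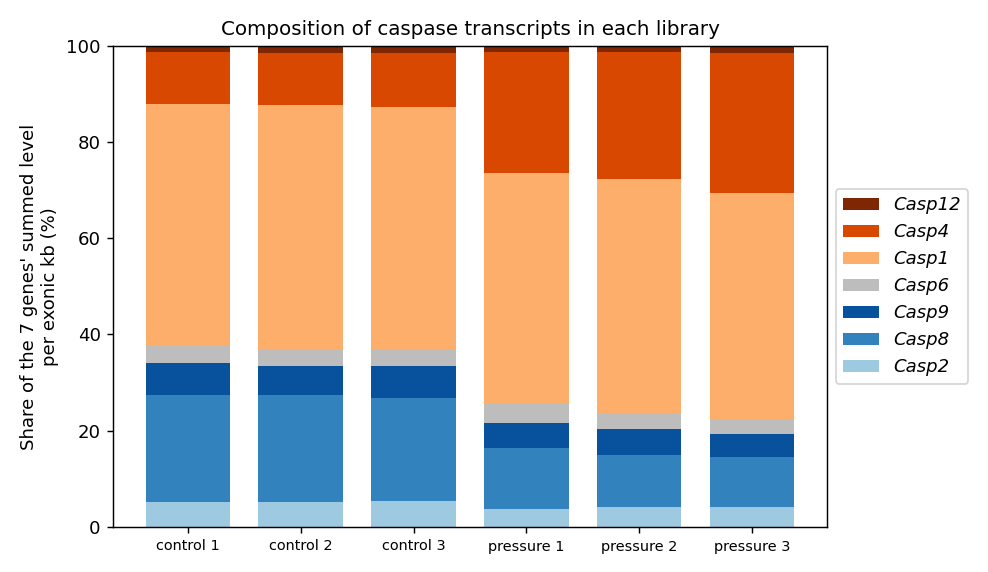
Share of each caspase gene in the summed level of the 7 genes per exonic kilobase (%), one bar per library, with initiators in blue, the executioner in grey and inflammatory members in orange to brown. The Casp4 section grows from 10.7% to 11.1% of a control library to 25.3% to 29.0% of a pressure library, and the Casp8 section shrinks from between 21.4% and 22.2% to between 10.5% and 12.7%.

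Genes that act with the caspases were read from 9 lists (78 genes tested). Of these 23 rose and 33 fell, 29.5% and 42.3%, beside 33.7% and 35.1% of all genes, with a median change of -0.14. With library totals only, 16 rose and 37 fell.

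Around the inflammatory caspases, 8 of 13 tested inflammasome sensors and adaptors fell and 3 rose, with a median of -1.02. Of the genes with a mean of at least 5 CPM, 4 were called lower and 3 higher. Pycard, which encodes the adaptor ASC that links sensors to caspase-1, stood at 5.30, 5.17 and 5.02 CPM in controls and at 1.31, 1.15 and 0.901 CPM under pressure (-2.18 ± 0.19, adjusted p = 3.97e-06). Nlrp3, the sensor of membrane damage and ion loss, went the other way, with 2.80, 2.35 and 2.44 CPM in controls and 9.47, 10.4 and 9.66 CPM under pressure (1.95 ± 0.14, adjusted p = 1.13e-06). The sensor gene and the adaptor gene of one complex thus moved in opposite directions, both at low levels. Naip5, a receptor for bacterial flagellin, fell by 1.43 ± 0.12 on the log2 scale, and Txnip, a thioredoxin-binding protein reported to bind NLRP3, went from 167 ± 4.24 to 78.7 ± 17.9 CPM.

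Among the substrates and pore proteins downstream, 2 of 6 rose and 3 fell (median -0.39; 1 rose without control sample 2). Gsdmd, which encodes the pore protein cut by caspase-1 and caspase-11, went from 24.7 ± 0.590 to 17.6 ± 2.22 CPM (-0.49 ± 0.11, adjusted p = 0.0024). Ninj1, which ruptures the membrane of dying cells, fell by 0.77 ± 0.11 on the log2 scale, and Panx1, a channel opened by caspase cleavage, rose by 0.55 ± 0.15, which missed the threshold when libraries were scaled by their totals (adjusted p = 0.0758). The cytokine Il18 was scarce, 1.57 ± 0.239 CPM in controls against 0.832 ± 0.185 CPM in pressure libraries (-0.91 ± 0.28, adjusted p = 0.0137; 0.0512 without control sample 2 and 0.0618 without pressure sample 1). Il1b, named after its values were seen, was lower still, with 0.850 ± 0.283 and 0.690 ± 0.0501 CPM (adjusted p = 0.45).

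Of 8 tested interferon-inducible GTPases of the GBP and IRG families, listed for their ties to caspase-11, 2 rose and 4 fell (median -0.40). Without control sample 1, 1 rose. How each of them acts on caspase-11 was not measured. Gbp9 went from 99.8 ± 6.29 to 42.7 ± 3.02 CPM, Gbp7 fell by 1.64 ± 0.13 and Irgm2 by 0.80 ± 0.086 on the log2 scale. Irgm1 rose from 133 ± 4.14 to 207 ± 28.3 CPM (0.63 ± 0.098, adjusted p = 0.000192). With library totals only, Irgm1 was the one member called higher.

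Around Casp8, 4 of 13 tested genes of the death-receptor platform rose and 4 fell, with a median of 0.18 (7 rose and 5 fell without pressure sample 3). Cflar encodes c-FLIP, the catalytically inactive relative of caspase-8 that pairs with it. Its levels were 313, 283 and 338 CPM in controls and 707, 609 and 449 CPM under pressure (0.92 ± 0.14, adjusted p = 0.000188), a rise beside the fall of Casp8. The ligand gene Tnf rose from 13.9 ± 1.35 to 38.0 ± 3.40 CPM. The receptor genes Tnfrsf1a, for TNF, and Tnfrsf10b, for TRAIL, fell (-0.76 ± 0.083 and -0.70 ± 0.082), while Fas, a death receptor named after its values were seen, had 12.88 ± 2.61 CPM in controls against 10.5 ± 2.52 CPM in pressure libraries (adjusted p = 0.179).

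Around Casp9, 1 of 7 apoptosome and mitochondrial genes rose and 3 fell (median -0.24). Cycs, encoding cytochrome c, rose from 131 ± 1.74 to 188 ± 3.67 CPM (0.52 ± 0.068, adjusted p = 5.99e-05). Its partner Apaf1 changed by -0.48 ± 0.15 (adjusted p = 0.014; 0.0542 without control sample 3), the mitochondrial protease gene Htra2 by -0.44 ± 0.089 and Aifm1 by -0.89 ± 0.16. Inhibitor of apoptosis genes had 3 of 5 tested members higher and 0 lower, with 1 higher when scaled by library totals only, without control sample 2 or without pressure sample 1. Birc3, encoding the ubiquitin ligase cIAP2, went from 41.0 ± 1.17 to 67.9 ± 3.17 CPM (0.73 ± 0.079, adjusted p = 1.58e-05), a call kept with all 4 scalings. Birc6 (0.60 ± 0.18) and Birc2 (0.25 ± 0.086) were no longer called with library totals only (adjusted p = 0.0729 and 0.749). Birc6 also missed the threshold without control sample 2, pressure sample 1 or pressure sample 2 (adjusted p from 0.0517 to 0.0571), and Birc2 with upper-quartile scaling, no low-count filter or a replicate block (0.198, 0.0587 and 0.0613) and without any 1 control sample or pressure sample 1 (0.0555 to 0.104). Xiap, the direct inhibitor of caspase-9, did not pass (0.29 ± 0.14, adjusted p = 0.0875). Of the 3 genes around Casp2, 1 fell (and 1 other was called higher without pressure sample 2): Cradd, the adaptor of the PIDDosome, by 0.66 ± 0.17 on the log2 scale (adjusted p = 0.00491).

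Of 12 tested genes listed with the executioners' substrates, 4 were higher and 5 lower (median -0.033), beside 33.7% and 35.1% of all tested genes. The lower ones numbered 3 with DESeq2 and without control sample 2, pressure sample 1 or pressure sample 2, and 2 without control sample 3. Dffb, the DNA-cutting nuclease freed when its inhibitor is cleaved, rose from 4.87 ± 1.15 to 13.1 ± 2.35 CPM. The gene of that inhibitor, Dffa, named after its values were seen, changed by -0.30 ± 0.10 (adjusted p = 0.0241). Parp1, a DNA damage sensor, fell by 1.10 ± 0.089 on the log2 scale. The cytoskeletal Sptan1 and the nuclear Acin1 rose by 0.45 ± 0.064 and 0.58 ± 0.098. Lmna, the lamin cut by caspase-6 and named after its values were seen, had 130 ± 4.82 CPM without pressure and 140 ± 17.9 CPM with it (adjusted p = 0.356).

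Of 11 tested transcription factors known to act on caspase genes, 4 were higher and 5 lower (median 0.050), beside 33.7% and 35.1% of all tested genes. Irf2, an interferon regulatory factor reported to act on Gsdmd, stood at 38.9, 38.6 and 42.1 CPM in controls and at 14.4, 15.4 and 15.3 CPM under pressure (-1.41 ± 0.092, adjusted p = 6.00e-07), and Irf1 (0.63 ± 0.10), named after its values were seen, moved the other way. Trp53 rose by 0.71 ± 0.078 and Ddit3, the stress factor CHOP, by 1.39 ± 0.15.

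**Figure D4:**
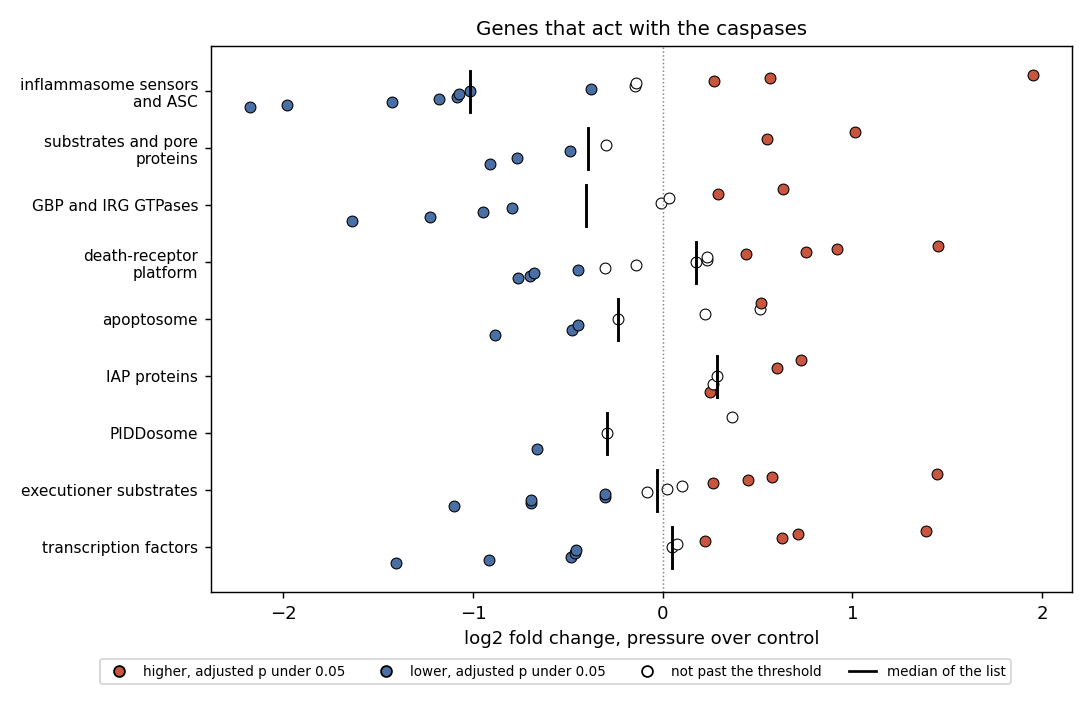
Log2 fold change, pressure over control, of the 78 tested genes in 9 lists of genes that act with the caspases; each dot is a gene (red higher, blue lower, white not past an adjusted p of 0.05) and black lines are list medians. Inflammasome genes have the lowest median, -1.02, with Nlrp3 as the far right dot at 1.95, and no inhibitor of apoptosis gene lies on the side of falls.

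Over the 6 libraries, the log2 CPM profiles most like that of each caspase among 9717 other genes had Pearson correlations of 0.995 to 1.00, as a description without a test, since all points share the same group difference and libraries. For Casp4 these were Zfp746 (0.998), Tnfrsf26 (0.997) and Zdhhc4 (0.996), which rose by 0.59 ± 0.11, 0.48 ± 0.10 and 0.81 ± 0.15. For Casp8 they were Sord, Gramd1a and Mapk3 (each 1.00 when rounded), of which Mapk3, the kinase ERK1, went from 244 ± 12.0 to 97.6 ± 7.41 CPM. For Casp1 they were Plac8 (0.999), Txndc12 (0.998) and Ccdc71 (0.998). For Casp12 the list included the nuclear non-coding RNA Neat1 (0.997), whose pressure libraries were widely spread, from 321 ± 52.4 to 157 ± 80.1 CPM. For the remaining members the closest were Apba1 (Casp2), Atp6v0d2 (Casp9) and Zscan2 (Casp6).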

How the data were processed

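Polyadenylated RNA of 3 control and 3 pressure samples was read as single reads of 101 bases from a stranded mRNA kit, per the labels' protocols. The submitters' processing notes name TopHat2 2.2.1, Cufflinks 2.2.1 and mm10. What each was used for, how reads were counted, with which strand setting and against which annotation is not given in the sources used here. Files deposited by the authors hold expected counts per gene symbol, not scaled, here rounded to whole numbers. Genes passing filterByExpr (minimum count 10, minimum total 15) were compared, after TMM scaling (factors of 1.074 to 1.083 in controls and 0.909 to 0.946 under pressure), with edgeR 4.0.16 (R 4.3.3) quasi-likelihood F-tests, two-sided and with no covariate; p-values of all 12892 genes tested were adjusted together (Benjamini-Hochberg). Alternatives were DESeq2 1.42.0, limma-voom 3.58.1, other scalings and filters, unrounded counts, a replicate block, a threshold of 0.01, a table without its 50 most abundant genes, and each sample left out in turn.

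Exonic and coding lengths were unions over GENCODE M21 transcripts of GRCm38 (the build named mm10). Promoter windows came from RefSeq and matched all 7 members. The members, lists and tests were chosen with earlier results of these data known. Genes were named by a rule: all members; per list, up to 4 called genes with the smallest p; and per member the 3 genes of mean 5 CPM or more with the most similar profile. Not every gene selected in this way is reported here.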

Additional observations from a re-analysis of the deposited data

How the results depend on the processing

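The 7 directions held in all 17 alternative settings, including the main fit at a threshold of 0.01, whose directions could not differ. All but Casp12 also kept their calls in each setting. Casp12 missed the threshold with DESeq2 (-0.48, adjusted p = 0.0529), at a threshold of 0.01 (-0.51, adjusted p = 0.0317) and without any 1 library other than pressure sample 3. Leaving out 1 library in turn gave -0.71 to -0.35 for Casp12, -1.03 to -0.73 for Casp2, -1.50 to -1.38 for Casp8, -0.84 to -0.71 for Casp9, -0.58 to -0.45 for Casp6, -0.65 to -0.44 for Casp1 and 0.66 to 0.99 for Casp4; the cause was not tested. With coding in place of exonic length the shares of the summed caspase level moved to 42.3% and 25.9% (initiators, control and pressure), 10.9% and 9.73% (executioner) and 46.8% and 64.4% (inflammatory). The counts called over all genes, over the 7 caspases and over the 9 lists together stayed within 1.5 times; of 306 alternative counts for single lists, 25 did not, among them inflammasome genes called lower (4, against 8, with a minimum mean of 5 CPM), inhibitor of apoptosis genes called higher (down to 1) and executioner substrates called lower (down to 2). For 53 other named genes, 898 alternative values gave 0 reversals, 22 lost calls and 3 gained ones. With the sample number as a replicate block, 8384 genes and all 7 caspases were called, Casp4 included; deviations of same-numbered samples correlated at 0.106, -0.189 and -0.108, so the numbers were not taken as pairs. Depth limits Casp12 (53 to 117 counts a library), Il18, Il1b, Pycard and Nlrp3.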
